A study of Homo sapiens with 8 samples.

Results

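The nucleolar ribosome biogenesis genes are 39 listed human genes whose products make, modify or assemble the ribosomal RNA and the ribosomal subunits. They were chosen by name, with earlier results of these data known. Of them, 38 had transcripts in the authors' table, out of 19431 genes in all. All 38 passed the filter on low values that left 11876 genes for testing, and BOP1 was not analysed here. The RNA came from LNCaP-FGC cells, an established line of androgen-dependent prostate cancer cells, which serves as the only model in the series. The cells were kept for 24 h with both I-CBP112 and A-485, with A-485 alone, with I-CBP112 alone or with the solvent DMSO, and each of these 4 groups held 2 libraries. I-CBP112 binds the bromodomain of the coactivators p300 and CBP, the module that reads acetylated lysine, and A-485 blocks their catalytic acetyltransferase site. The sources used here do not give the doses. No label says whether the 2 libraries of a group came from separate cultures, and the p-values therefore reflect only how far these samples spread, which may be technical.

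Ribosomes are built mainly in the nucleolus, where RNA polymerase I transcribes a long ribosomal RNA precursor. Small nucleolar ribonucleoproteins (snoRNPs) modify that precursor: box C/D particles guide methylation of the ribose, and box H/ACA particles guide conversion of uridine to pseudouridine. Helicases, GTPases, nucleases and scaffold proteins then fold, cut and package the RNA into small and large subunits. Many of the genes are known targets of the transcription factor MYC, which binds with its partner MAX to the E-box CACGTG.

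Promoter windows of 5 of the genes are shown because the E-box stands near the start site both in genes that fell and in a gene that did not. They are stretches of 150 bases of the RefSeq promoters, from 100 bases before the start to 50 after it, read 5′ to 3′ on the gene's own strand in GRCh38.p14, with CACGTG in capitals. The first 4 belong to genes that fell with both compounds, and UTP20, chosen after its values were seen, to a gene that was not called.
GNL3: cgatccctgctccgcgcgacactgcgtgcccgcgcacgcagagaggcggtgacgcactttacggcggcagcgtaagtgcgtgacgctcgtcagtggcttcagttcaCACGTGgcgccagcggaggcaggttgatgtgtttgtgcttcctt
NOP2: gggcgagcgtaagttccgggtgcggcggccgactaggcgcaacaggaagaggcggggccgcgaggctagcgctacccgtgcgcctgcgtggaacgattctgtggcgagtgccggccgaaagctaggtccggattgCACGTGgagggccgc
MRTO4: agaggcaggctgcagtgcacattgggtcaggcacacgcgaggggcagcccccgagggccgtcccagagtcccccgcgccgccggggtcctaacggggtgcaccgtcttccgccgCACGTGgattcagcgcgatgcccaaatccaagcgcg
NOP14: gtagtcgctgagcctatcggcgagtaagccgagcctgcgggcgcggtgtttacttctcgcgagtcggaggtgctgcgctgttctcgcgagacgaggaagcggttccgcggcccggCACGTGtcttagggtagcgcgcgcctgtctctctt
UTP20: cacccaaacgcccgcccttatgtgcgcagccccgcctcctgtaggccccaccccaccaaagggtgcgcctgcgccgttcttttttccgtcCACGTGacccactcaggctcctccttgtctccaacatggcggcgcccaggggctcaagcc
The GNL3 window lies at chr3:52685932-52686081 on the plus strand, and its E-box begins at position 7, counting the start base as 1. Another RefSeq promoter of GNL3, not shown, holds no CACGTG. The NOP2 window lies at chr12:6568242-6568391 on the minus strand, with the E-box from position 36. The MRTO4 window lies at chr1:19251705-19251854 on the plus strand, with the E-box from position 15. The NOP14 window lies at chr4:2963357-2963506 on the minus strand, with the E-box from position 16. In UTP20, at chr12:101280005-101280154 on the plus strand, the E-box begins at position -10, before the start.

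The letters CACGTG, which read the same on both strands, were searched in whole promoter windows of 300 bases, with no other motif. They stood in 15 of the 41 windows of these genes (36.6%), and in 2548 of the 35116 windows of the RefSeq table (7.26%). Counted by gene, 15 of the 32 genes with a window held it (46.9%), beside 1207 of 9362 tested genes with a window (12.9%). A gene was counted if any of its windows held CACGTG, and GNL3, DDX21, GAR1 and LYAR each had another window without it. By response, the E-box stood in 6 of the 13 such genes that fell with both compounds and in 9 of the 19 that were not called. The median log2 fold change with both compounds was -0.83 for genes with the E-box and -0.67 for genes without it. NOP10, which was not called, held 2 copies, and NOB1, DKC1 and PPAN, which fell, held none in these windows.

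The 2 sets of libraries differed in how many of their fragments fell on the transcripts of the table. The authors' values, read as FPKM (fragments per kilobase of each transcript, per 1e+06 fragments), summed to between 696917 and 808443 in the replicate 1 libraries and to between 181486 and 408673 in the replicate 2 libraries. In units of 1e+06, an estimated 15.9 to 28.1 fragments fell on the matched transcripts in replicate 1, and 4.44 to 13.5 in replicate 2, so the gene values of replicate 2 rest on fewer fragments. The fragments by which the values had been normalized were estimated at 17.1 to 31.0 in replicate 1 and 15.8 to 27.3 in replicate 2, in the same units, and the matched transcripts held 90.7% to 99.2% of them in replicate 1 and 21.5% to 49.4% in replicate 2. Scaled FPKM below are these values after each library was scaled to a common total and to a common typical gene. KLK3, a kallikrein gene that marks prostate luminal cells, stood at 51.04 and 50.3 scaled FPKM with both compounds, 567 and 638 with A-485, 1102 and 1074 with I-CBP112 and 2255 and 1999 in DMSO. KRT18, a keratin of luminal epithelium, stood at 320.0 and 373 scaled FPKM with both compounds, 333 and 314 with A-485, 414 and 544 with I-CBP112 and 679 and 615 in DMSO. Both genes, picked from the marker list after their values were seen, were lower in every treated library than in DMSO, as were KLK2 and TMPRSS2. Other luminal markers did not do so. KRT8 stood at 1437 and 738 scaled FPKM with both compounds, against 1216 and 761 in DMSO, and HOXB13 overlapped DMSO in all 3 treatments. FOLH1 lay below DMSO with both compounds and with A-485, and at 556 and 544 with I-CBP112, above the 463 and 503 in DMSO. Of the 3 basal epithelial and 6 stromal and blood markers, 2 in each list reached a scaled FPKM of 1 in at least 1 library, and TP63, PTPRC and HBB were listed at 0 throughout. The stromal and blood sum was 17.6 and 13.5 with both compounds, 15.2 and 12.6 with A-485, 8.17 and 8.54 with I-CBP112 and 5.58 and 4.96 in DMSO, carried by COL1A1 and CD68, and the part of either marker group in the results was not tested. The basal sum lay between 0 and 15.5.

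With both compounds, 16 of the 38 genes fell and none rose (limma on log2(scaled FPKM + 1), Benjamini-Hochberg adjusted p under 0.05 over 11876 genes), where 7.28% of all genes tested fell and 3.15% rose. With A-485 alone 8 fell and none rose, where 3.17% of all genes fell and 1.26% rose. With I-CBP112 alone none was called in either direction, as for all genes tested (0%), although 6 of the 38 and 1307 of all genes had an unadjusted p under 0.05. The median log2 fold change of the 38 genes was -0.76 with both compounds, -0.60 with A-485 and -0.18 with I-CBP112, beside 0.030, 0.0084 and 0.0040 over all genes tested. Below 0 lay 37 of the 38 with both compounds, 35 with A-485 and 28 with I-CBP112. In bulk RNA, fewer cells of a kind and less RNA per cell cannot be told apart, and the scaling makes every value relative to the typical gene of its library. Scaling to the total alone put the median of all genes at 0.25, 0.31 and 0.13 with both compounds, A-485 and I-CBP112, and the median of the 38 at -0.54, -0.27 and -0.037. Under it 34, 23 and 21 of the 38 lay below 0, and 9 (background 4.11%), 0 (1.35%) and 0 (0%) fell.

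The counts of calls changed when single libraries were left out, also libraries of groups outside the comparison. Each of these fits has fewer residual degrees of freedom. Over them the log2 fold change with A-485 ran from -0.89 to -0.80 for POLR1C and from -1.25 to -0.79 for PES1. With both compounds the count was 5 without replicate 1 of the combination, 6 without its replicate 2, 8 without DMSO replicate 1, and 13 to 16 without any of the others. With A-485 it was 0 without either A-485 library or DMSO replicate 1, 2 without either library of the combination, 3 without either I-CBP112 library and 13 without DMSO replicate 2. With both compounds DKC1, NOB1, NOLC1 and PPAN were called whichever of the 8 libraries was left out. POLR1C and MRTO4 lost their call without replicate 1 of the combination, GNL3 and DDX21 without either of its libraries, and NOP2 without its replicate 2 or DMSO replicate 1. NOP14, NOP56 and RRS1 lost it without either library of the combination or DMSO replicate 1, GAR1 without any library of the combination or DMSO, and NHP2 without either library of the combination, either A-485 library or DMSO replicate 1. Of the genes called with A-485, DKC1 and NOLC1 were called in 5 of the 8 fits, NOB1 in 3, and the other 5 genes in the 1 fit without DMSO replicate 2.

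The replicate number, which was taken to pair libraries across groups (its labels and a check are given with the processing), was also fitted as a block. With it 22 genes fell with both compounds (background 12.2%), 18 with A-485 (background 8.8%) and none with I-CBP112 (background 0%). Within replicate 1 the median difference from DMSO was -0.91 with both compounds, -0.69 with A-485 and -0.36 with I-CBP112. Within replicate 2 it was -0.66 with both compounds, -0.48 with A-485 and -0.13 with I-CBP112. With both compounds 35 genes lay below 0 in replicate 1 and 37 in replicate 2, with A-485 34 and 35, and with I-CBP112 29 and 25.

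**Figure D1:**
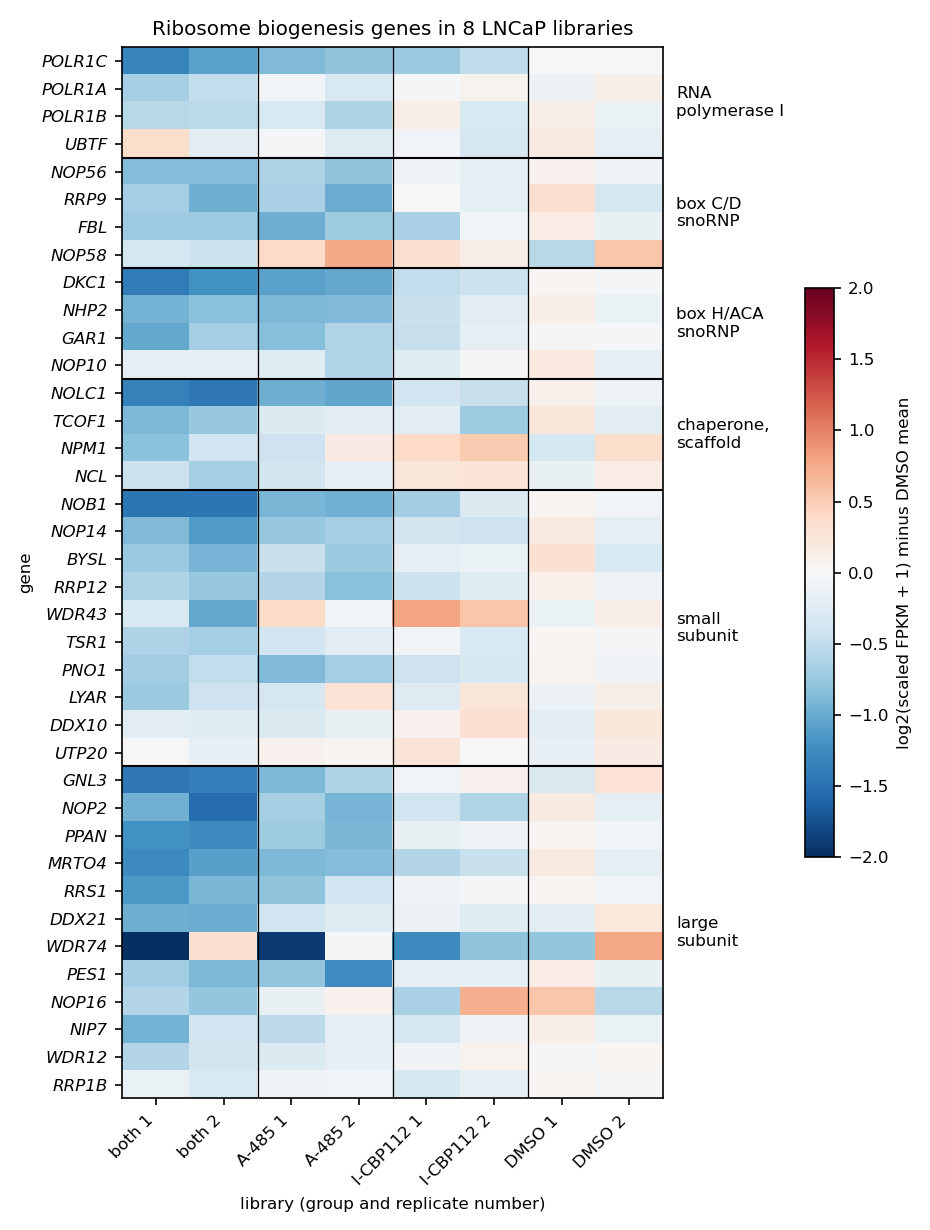
Each cell gives the log2(scaled FPKM + 1) of a gene in 1 library minus the mean of the 2 DMSO libraries; rows are the 38 genes by role, columns the 8 libraries, and the colour scale ends at -2 and 2. Both libraries of the combination lay below both DMSO libraries in 33 of the 38 genes, and WDR74 and NOP16 differed most between libraries of 1 group.

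Separation from DMSO followed the same order of groups. Both libraries of the combination lay below both DMSO libraries for 33 genes, where 27.3% of all genes tested did so. For A-485 it was 28 genes (background 25.9%), and for I-CBP112 16 genes (background 18.8%). Both libraries lay above both DMSO libraries for no gene with the combination or with A-485 (backgrounds 27.9% and 26.7%), and for 3 genes with I-CBP112, NCL, NPM1 and WDR43 (background 18.6%). The 5 genes whose libraries overlapped DMSO with both compounds were NOP58, NOP10, UTP20, WDR74 and UBTF.

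**Figure D2:**
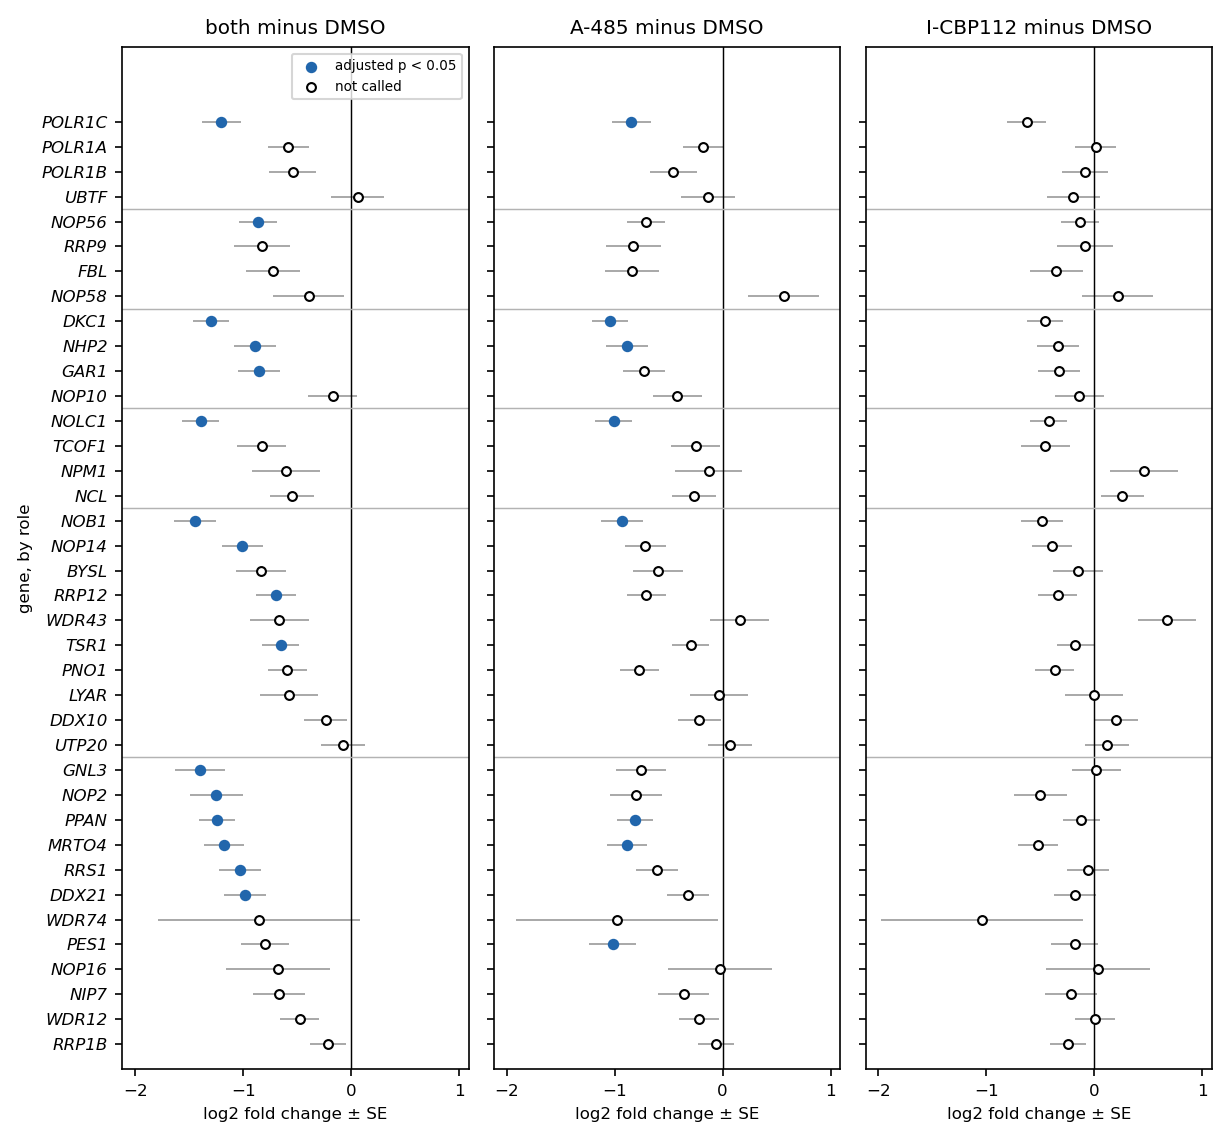
Points give the log2 fold change of each gene against DMSO and bars its standard error from limma (2 libraries per group), with the 3 treatments side by side and the genes grouped by role as in the heat map; filled points had an adjusted p under 0.05. The filled points number 16 with both compounds, 8 with A-485 and 0 with I-CBP112, and all lie below 0.

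Over all genes tested, 7.28% fell with both compounds and 3.17% with A-485, or 12.2% and 8.8% with the block. The counts by role below stand beside these shares. Among the RNA polymerase I genes, 1 of 4 fell with both compounds and 1 with A-485, and it was the same gene. POLR1C, which encodes a subunit shared by RNA polymerases I and III, stood at 27.2 and 32.8 scaled FPKM with both compounds, 37.4 and 39.8 with A-485, 41.6 and 48.99 with I-CBP112 and 70.6 and 69.7 in DMSO. All 6 treated libraries lay below the DMSO libraries, those of the combination lowest. Its log2 fold change was -1.20 ± 0.18 with both compounds (SE; limma, adjusted p = 0.00635) and -0.85 ± 0.18 with A-485 (0.0412). POLR1A, which encodes the catalytic subunit, and POLR1B, the other large subunit, had log2 fold changes of -0.58 and -0.54 with both compounds and were not called. UBTF, which encodes the upstream binding factor on ribosomal DNA, had 66.4 and 44.1 scaled FPKM with both compounds, 51.1 and 43.2 with A-485, 49.7 and 41.02 with I-CBP112 and 58.8 and 45.7 in DMSO. Its groups overlapped throughout, and at 0.062 ± 0.25 it was the 1 gene of the list above 0 with both compounds, a sign that turned when single libraries were left out (-0.23 to 0.35).

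The box C/D proteins gave 1 call among 4 genes with both compounds and none with A-485, and with the block 2 and 3. NOP56, a core protein of the particle, had 71.9 and 71.9 scaled FPKM with both compounds, 85.5 and 75.1 with A-485, 124 and 116 with I-CBP112 and 139 and 124 in DMSO. The combination and A-485 lay clear of DMSO, and I-CBP112 overlapped it. The log2 fold change of NOP56 was -0.86 ± 0.18 with both compounds (limma, adjusted p = 0.0219) and -0.71 ± 0.18 with A-485 (0.0618, and 0.0184 with the replicate block). FBL, the methyltransferase fibrillarin, and RRP9, a protein of the U3 particle, had log2 fold changes of -0.72 and -0.83 with both compounds and -0.84 and -0.83 with A-485. Neither was called; with the block RRP9 was called in both comparisons (0.0122 and 0.0211) and FBL with A-485 (0.0447). NOP58, the partner of NOP56, stood apart from it, with 18.1 and 17.3 scaled FPKM with both compounds, 30.9 and 40.4 with A-485, 29.2 and 25.95 with I-CBP112 and 15.7 and 34.97 in DMSO. Of its 6 treated libraries 5 lay between its 2 DMSO libraries, and no comparison of it was called.

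Of the box H/ACA core proteins, 3 of 4 fell with both compounds and 2 with A-485. DKC1, the pseudouridine synthase dyskerin, had 31.7 and 36.1 scaled FPKM with both compounds, 39.8 and 41.4 with A-485, 60.2 and 63.04 with I-CBP112 and 87.1 and 82.6 in DMSO. The 4 groups did not overlap and ran in that order from low to high. The log2 fold change of DKC1 was -1.30 ± 0.17 with both compounds (limma, adjusted p = 0.00345), -1.05 ± 0.17 with A-485 (0.0164) and -0.45 ± 0.17 with I-CBP112 (0.389, not called). NHP2, another core protein, had 238 and 255 scaled FPKM with both compounds, 246 and 247 with A-485, 335 and 393 with I-CBP112 and 502 and 416 in DMSO. The combination and A-485 overlapped each other below all other libraries, with log2 fold changes of -0.89 ± 0.19 and -0.89 ± 0.19 against DMSO (limma, adjusted p = 0.0272 and 0.0441). GAR1 had 19.3 and 24.5 scaled FPKM with both compounds, 21.7 and 26.01 with A-485, 28.98 and 34.7 with I-CBP112 and 40.6 and 39.5 in DMSO, and fell with both compounds (-0.85 ± 0.19; limma, adjusted p = 0.0308). With A-485 it was called with the block (adjusted p = 0.0240, against 0.0719 without it). NOP10, the small core protein, had 467 and 470.4 scaled FPKM with both compounds, 446 and 348 with A-485, 445 and 517 with I-CBP112 and 605 and 460.0 in DMSO. Its combination libraries lay between those of DMSO, the fold change was -0.17 ± 0.23, and under total scaling it stood at 0.081.

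Of the chaperones and scaffolds, NOLC1 was the 1 gene of 4 called, with both compounds and with A-485, and with the block TCOF1 joined it with both. NOLC1, which encodes a chaperone that escorts snoRNPs to the nucleolus, had 43.3 and 40.7 scaled FPKM with both compounds, 56.5 and 53.7 with A-485, 85.3 and 81.2 with I-CBP112 and 120.2 and 104 in DMSO. As for DKC1, the 4 groups were separate in that order. The log2 fold change of NOLC1 was -1.39 ± 0.17 with both compounds (limma, adjusted p = 0.00300) and -1.01 ± 0.17 with A-485 (0.0207). TCOF1, which encodes treacle, a scaffold of ribosomal DNA transcription, had 9.33 and 10.3 scaled FPKM with both compounds, 14.96 and 15.4 with A-485, 15.6 and 10.8 with I-CBP112 and 21.4 and 15.5 in DMSO. It lay just outside the threshold with both compounds (-0.83 ± 0.23; limma, adjusted p = 0.0548, and 0.0298 with the block). NPM1, nucleophosmin, was the most abundant gene of the list in DMSO, with 758 and 1028 scaled FPKM with both compounds, 1005 and 1499 with A-485, 1781 and 1922 with I-CBP112 and 1051 and 1718 in DMSO. Its replicate 2 library lay well above its replicate 1 library in every group but I-CBP112, and it was not called against DMSO. NCL, nucleolin, had 334 and 285 scaled FPKM with both compounds, 349.5 and 402 with A-485, 535 and 547 with I-CBP112 and 409 and 498 in DMSO. Its I-CBP112 libraries were the highest of the 8 and its combination libraries the lowest, with differences from DMSO of 0.26 and -0.55 on the log2 scale that were not called. NPM1 has closely related processed pseudogenes, and the counting could have split reads between them. Such a split was not tested for NPM1 or for NCL.

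In the small subunit group 4 of 10 genes fell with both compounds and 1 with A-485, and with the replicate block 7 and 4. NOB1, the endonuclease that makes the last cut of the small subunit RNA, had 34.5 and 34.7 scaled FPKM with both compounds, 50.4 and 49.02 with A-485, 58.8 and 79.01 with I-CBP112 and 99.5 and 92.4 in DMSO. The combination libraries were close together and the lowest, and no group overlapped another. With -1.45 ± 0.19 NOB1 had the lowest fold change of the list with both compounds (limma, adjusted p = 0.00393), and it fell with A-485 as well (-0.94 ± 0.19; 0.0384). NOP14, part of the small subunit processome, had 24.6 and 20.5 scaled FPKM with both compounds, 26.98 and 28.5 with A-485, 35.5 and 34.3 with I-CBP112 and 52.4 and 40.6 in DMSO. NOP14 fell with both compounds (-1.01 ± 0.19; limma, adjusted p = 0.0158), and its groups followed the same order as those of NOLC1 without overlap. With A-485 it stood at -0.72 ± 0.19 (limma, adjusted p = 0.0701, and 0.0287 with the block).

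RRP12 and TSR1, factors of late small subunit maturation, passed the threshold with both compounds by little. RRP12 had 19.4 and 17.6 scaled FPKM with both compounds, 20.04 and 16.7 with A-485, 22.4 and 25.5 with I-CBP112 and 32.9 and 28.3 in DMSO (-0.70 ± 0.18; limma, adjusted p = 0.0483). TSR1 had 13.996 and 13.4 scaled FPKM with both compounds, 16.7 and 19.004 with A-485, 21.3 and 17.7 with I-CBP112 and 22.6 and 21.6 in DMSO (-0.65 ± 0.17; limma, adjusted p = 0.0499). With A-485 RRP12 was called with the block (limma, adjusted p = 0.0312, against 0.0652 without it). The calls of RRP12 and TSR1 with both compounds were lost whichever of the 8 libraries was left out, with adjusted p from 0.0531 to 0.234 for RRP12 and from 0.0660 to 0.226 for TSR1 (limma). BYSL, bystin, had 20.7 and 18.2 scaled FPKM with both compounds, 25.5 and 20.7 with A-485, 31.3 and 32.1 with I-CBP112 and 43.9 and 28.4 in DMSO. It lay just outside the threshold with both compounds (-0.83 ± 0.23; limma, adjusted p = 0.0559, and 0.0192 with the block). PNO1, the partner of NOB1, had 8.12 and 9.48 scaled FPKM with both compounds, 6.98 and 8.31 with A-485, 9.99 and 10.8 with I-CBP112 and 14.5 and 12.96 in DMSO. Its treated libraries all lay below DMSO, those of A-485 reaching lowest, and its adjusted p was 0.0759 with both compounds and 0.0528 with A-485 (limma), or 0.0438 and 0.0286 with the block.

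WDR43, DDX10, LYAR and UTP20 were not called against DMSO in any comparison without the block, and their log2 fold changes with both compounds were -0.66, -0.24, -0.58 and -0.079. LYAR, a nucleolar zinc finger protein, was called lower with both compounds with the block (adjusted p = 0.0411). WDR43, a WD-repeat protein of the processome, had 13.4 and 7.74 scaled FPKM with both compounds, 21.9 and 16.2 with A-485, 29.9 and 25.1 with I-CBP112 and 15.3 and 18.4 in DMSO. The I-CBP112 libraries were the highest and those of the combination the lowest. UTP20, a large scaffold of the processome, had 4.07 and 3.499 scaled FPKM with both compounds, 4.36 and 4.21 with A-485, 5.002 and 4.0003 with I-CBP112 and 3.51 and 4.64 in DMSO. All its groups overlapped DMSO, and its change with both compounds stood at 0.12 under total scaling.

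The large subunit group gave the most calls, 6 of 12 genes with both compounds and 3 with A-485, and with the block 7 and 6. Of the genes added with A-485, NOP2 had an adjusted p of 0.0201 and RRS1 of 0.0464 (limma, with the block). GNL3, the GTPase nucleostemin, had 36.9 and 38.4 scaled FPKM with both compounds, 53.8 and 65.5 with A-485, 97.01 and 108 with I-CBP112 and 82.6 and 123 in DMSO. The I-CBP112 libraries lay between those of DMSO, while A-485 and, further down, the combination lay below. Its log2 fold change was -1.40 ± 0.23 with both compounds (limma, adjusted p = 0.00900) and -0.76 ± 0.23 with A-485 (0.0939, and 0.0277 with the block). PPAN, a factor of early large subunit assembly, had 34.6 and 32.8 scaled FPKM with both compounds, 48.95 and 42.8 with A-485, 73.4 and 75.6 with I-CBP112 and 83.8 and 78.4 in DMSO. PPAN fell with both compounds (-1.24 ± 0.17; limma, adjusted p = 0.00431) and with A-485 (-0.81 ± 0.17; 0.0394), whereas I-CBP112 and DMSO stood next to each other. MRTO4, which helps to assemble the stalk of the large subunit, had 9.05 and 10.5 scaled FPKM with both compounds, 11.97 and 12.2 with A-485, 15.1 and 16.7 with I-CBP112 and 26.4 and 20.5 in DMSO. It fell with both compounds (-1.18 ± 0.19; limma, adjusted p = 0.00798) and with A-485 (-0.89 ± 0.19; 0.0398), and no group overlapped another.

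NOP2, an RNA cytosine methyltransferase, had 27.4 and 17.9 scaled FPKM with both compounds, 33.6 and 27.9 with A-485, 40.8 and 35.4 with I-CBP112 and 61.5 and 47.7 in DMSO. NOP2 fell with both compounds (-1.25 ± 0.24; limma, adjusted p = 0.0184), and its replicate 2 library of the combination was the lowest of the 8. RRS1, which helps to load a ribosomal RNA onto the large subunit, had 21.6 and 25.6 scaled FPKM with both compounds, 27.6 and 36.8 with A-485, 46.3 and 47.7 with I-CBP112 and 50.8 and 47.4 in DMSO. It fell with both compounds (-1.03 ± 0.19; limma, adjusted p = 0.0161), and the I-CBP112 libraries overlapped DMSO. DDX21, a nucleolar RNA helicase, had 29.1 and 28.9 scaled FPKM with both compounds, 44.2 and 48.4 with A-485, 53.7 and 49.2 with I-CBP112 and 49.9 and 67.9 in DMSO. DDX21 fell with both compounds (-0.98 ± 0.20; limma, adjusted p = 0.0193) and stood at -0.32 ± 0.20 with A-485 (0.332), a change that lay at 0.0072 under total scaling.

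PES1 and WDR12 encode partners in the complex that also holds the BOP1 protein. PES1 had 83.2 and 71.8 scaled FPKM with both compounds, 77.6 and 56.2 with A-485, 118 and 120.2 with I-CBP112 and 149 and 122 in DMSO. It fell with A-485 (-1.02 ± 0.22; limma, adjusted p = 0.0414) and lay just outside the threshold with both compounds (-0.80 ± 0.22; 0.0543, and 0.0139 with the block), so that it was the 1 gene of the 8 called with A-485 that was not called with both. WDR12 was low throughout, with a log2 fold change of -0.48 with both compounds that was not called. WDR74, NOP16, NIP7 and RRP1B were not called either, at -0.85, -0.68, -0.67 and -0.22 with both compounds. WDR74 had 46.4 and 233 scaled FPKM with both compounds, 49.6 and 183 with A-485, 77.8 and 108 with I-CBP112 and 110.0 and 324 in DMSO. Replicate 2 was higher than replicate 1 in every group, the standard error was 0.94, and the annotated gene overlaps an snRNA gene on the same strand, RNU2-2P, whose part in these values was not tested. NOP16 lay near the filter, between 0.457 and 3.09 scaled FPKM, and rested on 1 transcript.

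**Figure D3:**
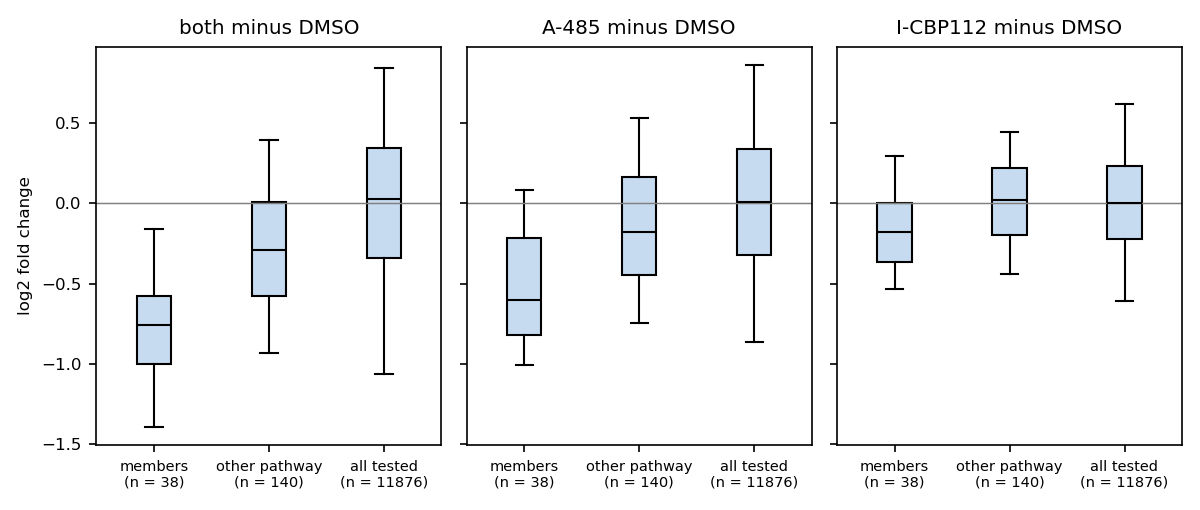
Boxes give the quartiles, lines the median and whiskers the 5th and 95th percentiles of the log2 fold changes against DMSO of the 38 genes, of 140 other genes of the pathway and of all 11876 genes tested, for both compounds, A-485 and I-CBP112. The medians of the 38 genes were -0.76, -0.60 and -0.18, those of the other pathway genes -0.29, -0.18 and 0.022.

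The other genes of the pathway were taken from lists of 143 further factors, 140 of which were tested. These lists too were chosen with earlier results known. With both compounds 12 fell and none rose, where 7.28% of all genes tested fell and 3.15% rose, and with A-485 1 fell, where 3.17% did. The 1 gene was IMP4 of the small subunit processome (-0.92 ± 0.19; limma, adjusted p = 0.0402). None was called with I-CBP112, where 6 had an unadjusted p under 0.05. Their median log2 fold change was -0.29 with both compounds, -0.18 with A-485 and 0.022 with I-CBP112. With both compounds and with A-485 it lay between that of the 38 genes and that of all genes tested, and with I-CBP112 above both. By list, 3 of 40 genes of the small subunit processome fell with both compounds, 5 of 49 of large subunit assembly, 2 of 18 of RNA polymerase I, 1 of 9 of snoRNP assembly and 1 of 24 of the RNA exosome and ribosomal RNA nucleases. Beside the 7.28% of all genes that fell, these counts are near the background. With the replicate block 36 fell and 2 rose with both compounds (backgrounds 12.2% and 7.39%), and 17 fell and 1 rose with A-485 (8.8% and 4.44%).

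EXOSC5, a subunit of the RNA exosome, had the lowest fold change of these lists, with 18.8 and 10.7 scaled FPKM with both compounds and 52.2 and 29.8 in DMSO (-1.41 ± 0.32; limma, adjusted p = 0.0309). NVL, an ATPase that releases factors from the large subunit precursor, had 14.5 and 14.3 scaled FPKM with both compounds, 26.9 and 39.5 with A-485, 38.1 and 26.2 with I-CBP112 and 36.4 and 39.4 in DMSO (-1.34 ± 0.24; limma, adjusted p = 0.0138). With A-485 alone NVL overlapped DMSO (-0.21 ± 0.24; 0.623). NLE1, another large subunit factor, had 23.2 and 18.9 scaled FPKM with both compounds and 51.6 and 43.01 in DMSO (-1.13 ± 0.22; limma, adjusted p = 0.0171). At the other end stood POP4, TAF1B and XRN2, with 0.54, 0.54 and 0.53 and no call.

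MYC itself had 18.9 and 14.6 scaled FPKM with both compounds, 60.8 and 52.6 with A-485, 158 and 158 with I-CBP112 and 244 and 198 in DMSO. Its groups did not overlap. It fell with both compounds (-3.64 ± 0.20; limma, adjusted p = 0.000121) and with A-485 (-1.94 ± 0.20; 0.00489), and its part in the other changes was not tested.

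Both compounds were then set against each compound alone. These comparisons share libraries with those against DMSO, so they are no separate evidence. Against I-CBP112 alone, 7 of the 38 genes were lower with both compounds and none higher, where 2.01% of all genes were lower and 0.269% higher. With the replicate block it was 13 (background 4.3% lower, 1.36% higher), with NOP56, NCL, NPM1, NOP2, RRP9 and DDX21 added. Fewer of the 38 were called whichever library was left out, and the share of all genes called in those fits is not given here. The 7 were GNL3, WDR43, PPAN, NOLC1, RRS1, NOB1 and DKC1, with log2 differences from -1.42 for GNL3 to -0.85 for DKC1. WDR43 was called in this comparison and in none against DMSO (-1.34 ± 0.27; limma, adjusted p = 0.0478), and its I-CBP112 libraries stood above DMSO. That height lay largely in short transcripts: a processed transcript of 579 bases had 1.98 and 1.38 scaled FPKM with both compounds, 9.07 and 13.4 with I-CBP112 and 3.07 and 2.12 in DMSO, while the longest coding transcript differed from DMSO by -0.13 on the log2 scale with I-CBP112. On protein-coding transcripts alone WDR43 was at -0.80 ± 0.34 against I-CBP112 and was not called (limma, adjusted p = 0.302), and the other 6 genes were. The median difference of the 38 genes was -0.60, beside 0.0080 over all genes tested.

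Against A-485 alone none of the 38 genes was called, where 0.724% of all genes were lower and 0.0926% higher, and none was called with the block (backgrounds 1.15% and 0.261%). The median difference was -0.28, with 30 of 38 genes below 0 and 7 at an unadjusted p under 0.05. NOP58, WDR43, DDX21 and GNL3 had the lowest of these 7 values, and DDX21 had the smallest p (-0.66 ± 0.20; limma, adjusted p = 0.226). A-485 against I-CBP112 gave no call either, where 0.775% of all genes were lower and 0.0842% higher, with a median of -0.37 and 11 genes at an unadjusted p under 0.05. With the block PPAN and PES1 were lower with A-485 than with I-CBP112 (background 2.08% lower, 0.455% higher; limma, adjusted p = 0.0403 and 0.0399).

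The interaction, taken as the combined log2 change less the 2 single changes added together, was called for none of the 38 genes or of all genes tested (0%), with 2 and 1052 at an unadjusted p under 0.05. With the block none of the 38 was called, where 0.0842% of all genes were lower. The median interaction over the 38 genes was -0.024. The 2 genes of the list with an unadjusted p under 0.05 were WDR43 (-1.49 ± 0.38, and -0.71 ± 0.47 on protein-coding transcripts) and NOP58 (-1.18 ± 0.47).

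**Figure D4:**
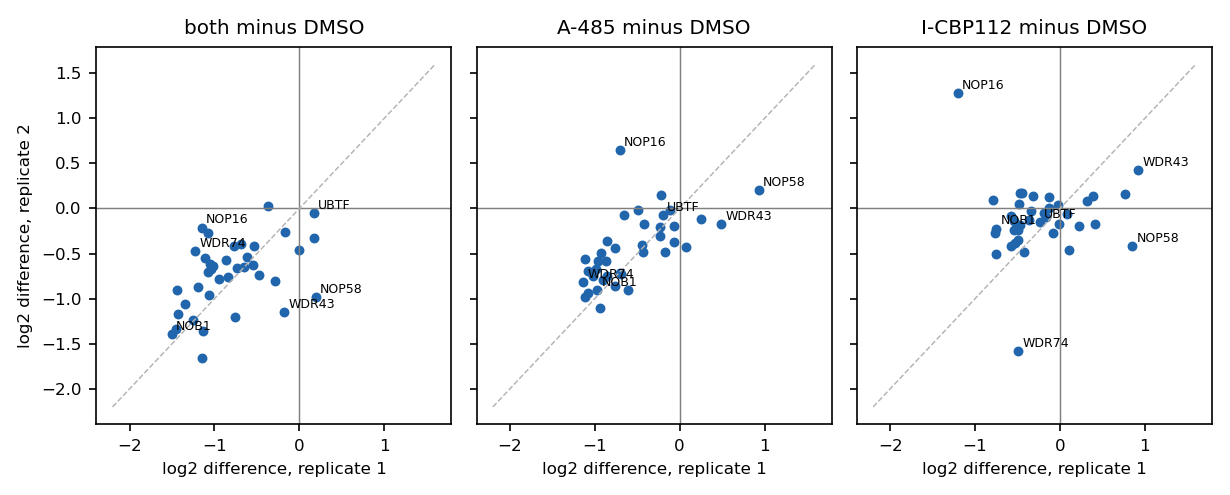
Each point is 1 of the 38 genes, with its log2 difference from the DMSO library of replicate 1 on the x axis and of replicate 2 on the y axis, for both compounds, A-485 and I-CBP112; the dashed line marks equal values. With both compounds NOB1 stood at -1.50 and -1.39 and most genes lie below 0 on both axes, while WDR74, NOP58 and NOP16 lie far from the line in at least 1 panel.

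The genes also differed in the transcripts behind their values. The table held 148 transcripts of the 38 genes, and 12 genes rested on 1 transcript, among them NOB1, MRTO4, RRS1 and DDX21. In 11 of the other 26 the same transcript was the most abundant in all 8 libraries. DKC1 rested almost wholly on 1 transcript, which held 98.5% of its FPKM with A-485 and a larger share in the other groups. For GNL3 the leading transcript held 94.6% with both compounds, 88.8% with A-485, 69.6% with I-CBP112 and 93.6% in DMSO, and its own log2 difference with both compounds was -1.38. In GAR1 and RRP12 the leading transcript moved less than the gene: that of GAR1 differed from DMSO by -0.37 with both compounds and that of RRP12 by -0.28, against -0.85 and -0.70 for the genes. Short transcripts weigh heavily in summed FPKM: a transcript of 247 bases held 41.5% of NPM1 with both compounds and 40.6% in DMSO. With each transcript weighted by its length, a choice made after seeing this, 24 of the 38 genes fell with both compounds (background 10.5%), 15 with A-485 (6.15%) and none with I-CBP112 (0%).

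Of the 38 genes, 8 carry snoRNA genes on the same strand within their bounds, namely DKC1, GNL3, NCL, NOP56, NOP58, PPAN, TSR1 and WDR43. With both compounds 5 of these 8 fell, with a median log2 fold change of -0.76, and 11 of the other 30, also with a median of -0.76. Of all genes tested 7.28% fell. The processing notes do not say whether strand was used, so reads of a gene and of an overlapping gene on the opposite strand, as for GNL3 and PBRM1, NOP14 and NOP14-AS1 or MRTO4 and EMC1, cannot be told apart. PPAN also shares sequence with the readthrough gene PPAN-P2RY11, and its value is uncertain to that extent. NOP2, RRS1 and WDR74 overlap annotated protein-coding genes on the same strand as well (AC006064.6, AC009879.2 and TEX54). The part of these genes in the values was not tested.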

How the data were processed

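RNA of the 8 libraries was extracted with Trizol and DNase and made into libraries with a New England Biolabs preparation, per the labels' protocols. STAR, Cufflinks, DESeq and DESeq2, with hg19 and GRCh37 as builds, stand in the submitters' processing notes; the sources used here give neither versions nor strand settings. The authors' deposited table of 81591 transcripts is named as counts, but 78.3% of its values are not whole and low values step with transcript length, so the deposited values were treated as FPKM. Transcripts were matched by Ensembl identifier to GENCODE release 29 (74209, or 91.0%, with 95.7% to 96.6% of the FPKM) and summed to 19431 genes. Libraries were scaled to a total of 1e+06 and by a trimmed mean of log ratios (30% of ratios and 5% of levels trimmed). On the deposited scale the median gene stood at 0.58, 0.35 and 0.05 log2 above DMSO with both compounds, A-485 and I-CBP112, and after scaling at 0.030, 0.0084 and 0.0040. Genes at 1 or more in at least 2 libraries (11876) entered a linear model of log2(scaled FPKM + 1) in limma 3.58.1 (R 4.3.3), with a mean for each group, trended and robust variances, 4 residual degrees of freedom and a threshold of 0.05 after Benjamini-Hochberg adjustment. The pseudocount of 1 understates changes of low genes. Fragments per library were estimated from the value of 1 fragment. That value was the most frequent low value among genes with 1 transcript of at least 3000 bases, within a relative tolerance of 0.05.

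The replicate numbers were taken to pair libraries across groups, because the sample descriptions give all libraries of a number the same prefix, whose meaning is not stated. The differences of replicate 1 from replicate 2 correlated between groups in all 6 pairs of groups, with r from 0.145 to 0.425 over 11876 genes. Such a correlation shows a difference shared by the libraries of a number, not that they came from paired cultures. Genes of the list and the other pathway lists were chosen with earlier results of these data known. Values in each library are given for genes called against DMSO, for the 3 lowest and 3 highest with both compounds and for those nearest the threshold. Those of NOP58, NPM1, NCL, WDR43 and WDR74 were added outside this rule, with their values already seen. The promoters shown are the 4 lowest called genes whose window holds CACGTG, none on chromosome 8, plus UTP20. Some genes of the luminal marker list, and its summed level, are not reported here. An older alias in the exosome list that the annotation gives to another gene was dropped. The alternatives tried were other scalings, pseudocount and filter, protein-coding transcripts, length-weighted sums, the block and each library left out.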

Additional observations from a re-analysis of the deposited data

How the results depend on the processing

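Median-of-ratios scaling, a pseudocount of 0.1 and protein-coding transcripts alone kept each count of called genes within 1.5 times. Total scaling moved the count with both compounds to 9, with A-485 to 0 and of both compounds against I-CBP112 to 1. Without a filter on low values, which tests more genes, the counts of A-485 against DMSO and of both compounds against I-CBP112 were 3 and 2. The replicate block raised them to 18 and 13, gave 2 for A-485 against I-CBP112 and left the others within 1.5 times. Length-weighted sums, chosen after seeing the data, gave 15 with A-485. With each library left out in turn, the count was 5 to 16 with both compounds, 0 to 13 with A-485 and 0 to 6 for both compounds against I-CBP112; a group left with 1 library is assumed to vary like the others.

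Total scaling, which shifts all genes upward against DMSO, turned uncalled values. With A-485 they became 0.070 for NCL, 0.21 for NPM1, 0.18 for NOP16, 0.057 for WDR12, 0.25 for RRP1B, 0.0072 for DDX21, 0.090 for DDX10, 0.12 for POLR1A, 0.19 for UBTF, 0.071 for TCOF1, 0.28 for LYAR and 0.027 for TSR1. With both compounds they became 0.081 for NOP10, 0.017 for RRP1B and 0.12 for UTP20. With A-485, NOP16 was at 0.058 with a pseudocount of 0.1, and WDR43 at -0.091 on protein-coding transcripts and -0.21 with length-weighted sums; the cause was not tested. Leaving out single libraries gave signs of both kinds with A-485 for NPM1 (-0.48 to 0.22), NOP16 (-0.59 to 0.53), UTP20 (-0.095 to 0.23), WDR43 (-0.051 to 0.36), DDX10 (-0.44 to 0.0066), UBTF (-0.32 to 0.041) and LYAR (-0.34 to 0.27). With both compounds it did so for NOP58 (-0.94 to 0.16), NOP10 (-0.37 to 0.027), UTP20 (-0.24 to 0.083), WDR74 (-2.004 to 0.30) and UBTF (-0.23 to 0.35).

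With 2 libraries per group, and fewer fragments on the matched transcripts in replicate 2, the precision for small changes is limited. NOP16, the lowest of these genes in DMSO, lay near the filter on low values.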
